A study of Mus musculus with 35 samples.

Results

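The levels of 10 transcription factor genes of brown and general adipogenesis were read from the counts of mouse interscapular brown adipose tissue (iBAT), the heat-producing fat depot between the shoulder blades, before and during cold exposure. They are the nuclear receptor genes Pparg and Ppara, the CCAAT/enhancer binding protein genes Cebpa, Cebpb and Cebpd, the early B cell factor genes Ebf1 and Ebf2, and Prdm16, Zfp423 and Klf15. The genes were taken by name, and all 10 of 10 were found among the 55421 genes of the table and passed the filter on low counts in every comparison. The tissue came from 35 male C57BL/6J mice aged 9 to 10 weeks and fed standard chow, with 1 library per mouse. A group of 5 mice stayed at the colony temperature of 24 °C and are called the room temperature (RT) mice. Cold-exposed mice were kept at 6 °C for 6 hours or for 1, 2, 3, 4 or 5 days, with n = 5 for each duration. The cold-exposed mice were also caged alone without nesting material in an incubator, so cold and these housing conditions cannot be told apart. The hour of day of tissue collection is not given either, so its effect cannot be told apart from that of the duration of cold. The comparisons ask which of these regulators changed in amount of transcript early in the cold, and whether that change was still there after several days.

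PPARγ, the product of Pparg, is the nuclear receptor that fat cells require to form and to keep their lipid genes on, and C/EBPα acts beside it at many of the same genes. C/EBPβ and C/EBPδ come earlier in adipogenesis and switch on Pparg and Cebpa, while EBF1 and EBF2 open adipocyte genes for PPARγ. EBF2 and PRDM16 set the brown rather than the white programme, ZFP423 commits precursors to the fat lineage and holds back thermogenic genes by acting on EBF2, PPARα drives fatty acid oxidation, and KLF15 is a glucocorticoid-responsive regulator of amino acid and glucose use. In cold, noradrenaline from sympathetic nerves raises cyclic AMP in brown adipocytes, which activates the factor CREB. The values here are amounts of transcript in whole tissue, in which fewer cells of a type and less RNA per cell cannot be told apart.

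The libraries held 3846016 to 6047247 gene counts each. Mitochondrially encoded genes held between 33.6% and 46.2% of them, and the single gene Gm42418 held between 7.81% and 16.3%. Levels are given as CPM, the share of a library's counts on a fixed scale after TMM scaling, and the libraries count the 3′ end of a transcript, so that levels can be set side by side between mice but not between genes. All 8 adipocyte markers listed (Adipoq, Plin1, Lipe, Cidec, Cidea, Ucp1, Pnpla2 and Adrb3) were detected, and their summed level was between 7891 and 15970 CPM. A fold change is called where the Benjamini-Hochberg adjusted p of edgeR's quasi-likelihood test over all genes tested was below 0.05. Scaling by library size alone moved the median log2 fold change of all genes against RT to between −0.25 and −0.15, so that changes are read relative to the TMM scaling, under which that median was between −0.03 and −0.01. With library size alone, between 25.1% and 35.5% of the genes called against RT were higher, rather than 50.6% to 54.2%.

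After 6 hours in the cold, Cebpb and Ebf1 had risen and Ppara, Cebpa and Ebf2 had fallen. That is 2 genes higher and 3 lower out of 10, and 21.5% of the 10593 genes tested were called higher and 21.0% lower, so the counts of this family were near the background at this time. After 1 day 3 were higher and 2 lower, beside 18.9% and 17.8% of all genes, and after 2 days 1 was higher and 2 lower, beside 16.4% and 14.7%. After 3 days 1 was higher and 4 lower, beside 18.3% and 15.5%. After 4 days 2 were higher and 5 lower, beside 19.4% and 18.6%, and after 5 days 1 was higher and 5 were lower, beside 20.2% and 18.6%. With library size alone, the counts were 2 higher and 4 lower after 6 hours, 2 and 3 after 1 day, 1 and 3 after 2 days, 1 and 5 after 3 days, 1 and 6 after 4 days, and 1 and 7 after 5 days. The 5 genes lower after 5 days became 3 without RT replicate 3 or without replicate 4 or 5 at 5 days. They became 4 without any other single mouse of that comparison or in 1 fit of 7 groups. The 5 genes lower after 4 days became 4 without RT replicate 1, 2 or 3 or without replicate 1, 2, 3 or 5 at 4 days. The same held with RLE size factors, a replicate block or 1 fit of 7 groups. The 1 gene higher after 3 days became 2 without RT replicate 1 or 3 or replicate 4 at 3 days, and the 2 higher after 4 days became 1 without RT replicate 2, 4 or 5 or replicate 3 or 4 at 4 days. The median log2 fold change of the 10 genes was 0.12 after 6 hours and −0.41 after 5 days, against −0.03 and −0.02 over all genes. All 6 comparisons share the same RT mice, so a high or low RT mouse enters each of them. In the test of any difference over the 7 groups, 9 of the 10 genes passed, beside 60.4% of the 12077 genes tested, and Pparg did not (edgeR adjusted p = 0.155).

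**Figure D1:**
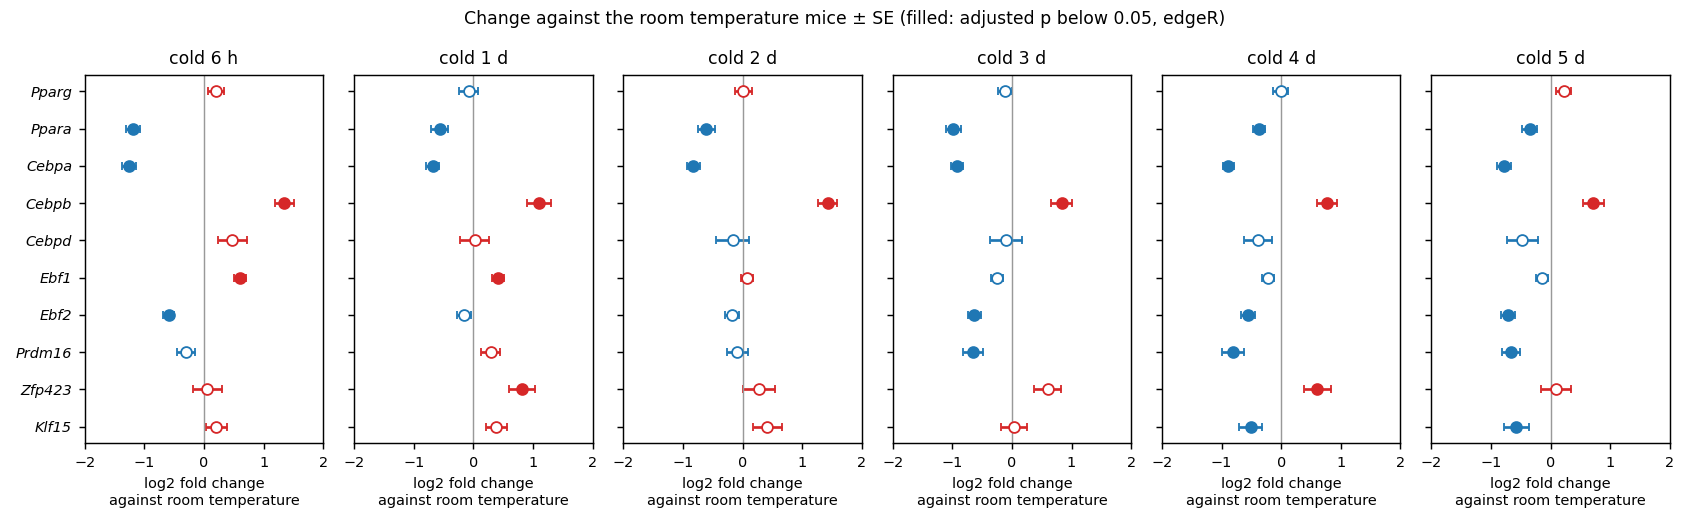
Log2 fold change against the room temperature mice (x axis) for each of the 10 genes (y axis) and each duration of cold (panels), with the standard error of the edgeR fit as a bar, red above 0 and blue below, and filled where the adjusted p was below 0.05. Ppara and Cebpa lie below 0 and Cebpb lies above 0 with a filled point in all 6 panels, whereas Pparg has an open point in each.

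Cebpb and Cebpa moved in opposite directions at every duration. Cebpb stood at 107, 90.7, 67.0, 62.5 and 55.7 CPM in the RT mice. After 6 hours the mice had 178, 226, 163, 196 and 226 CPM. Every mouse at 6 hours was above every RT mouse, and the log2 fold change was 1.35 (SE 0.16, edgeR adjusted p = 2.4e-06), a 2.55-fold rise. Cebpb was highest after 2 days, when the mice lay between 189 and 249 CPM with a mean of 207 ± 25.6 (SD, n = 5) against 76.6 ± 21.6 at RT. The rise there was 2.69-fold, and again the groups did not overlap. After 5 days the values were 139, 78.1, 147, 139 and 128 CPM. All but 1 of these 5 mice were above all RT mice, and the log2 fold change had come down to 0.72 (SE 0.18, edgeR adjusted p = 0.0038). Cebpb shares exon sequence with Tmem189 on the opposite strand, a gene with at most 164 counts per mouse against 306 to 1647 for Cebpb, and the strand setting of the counting is not given in the sources used here.

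Cebpa, whose product keeps mature adipocytes sensitive to insulin, gave the largest fall among the 10 genes after 6 hours. In the RT mice its levels were 361, 339.8, 355, 316 and 311 CPM, a spread of 6.68% of their mean. In the mice at 6 hours they were 183, 112, 134, 141 and 144 CPM. Every cold-exposed mouse was below every RT mouse, with a log2 fold change of −1.26 (SE 0.11, edgeR adjusted p = 1.1e-07). The fall was partly reversed at 1 day (168 to 251 CPM) and the level then stayed between 151.8 and 246 CPM in all mice from 2 to 5 days. At each duration all 5 mice lay below the lowest RT mouse, and the log2 fold change after 5 days was −0.78 (SE 0.12, edgeR adjusted p = 5.3e-05).

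The ratio of Cebpb to Cebpa counts within a library does not depend on how libraries are scaled. It was 0.179, 0.189, 0.198, 0.267 and 0.297 in the RT mice. After 6 hours it was 0.976, 1.21, 1.38, 1.57 and 2.01. The ratio was above that of the highest RT mouse in every cold-exposed mouse of every duration, with a lowest value of 0.351, in a mouse at 5 days. Its median was 0.865 after 1 day, 1.04 after 2 days and 0.739 after 5 days.

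**Figure D2:**
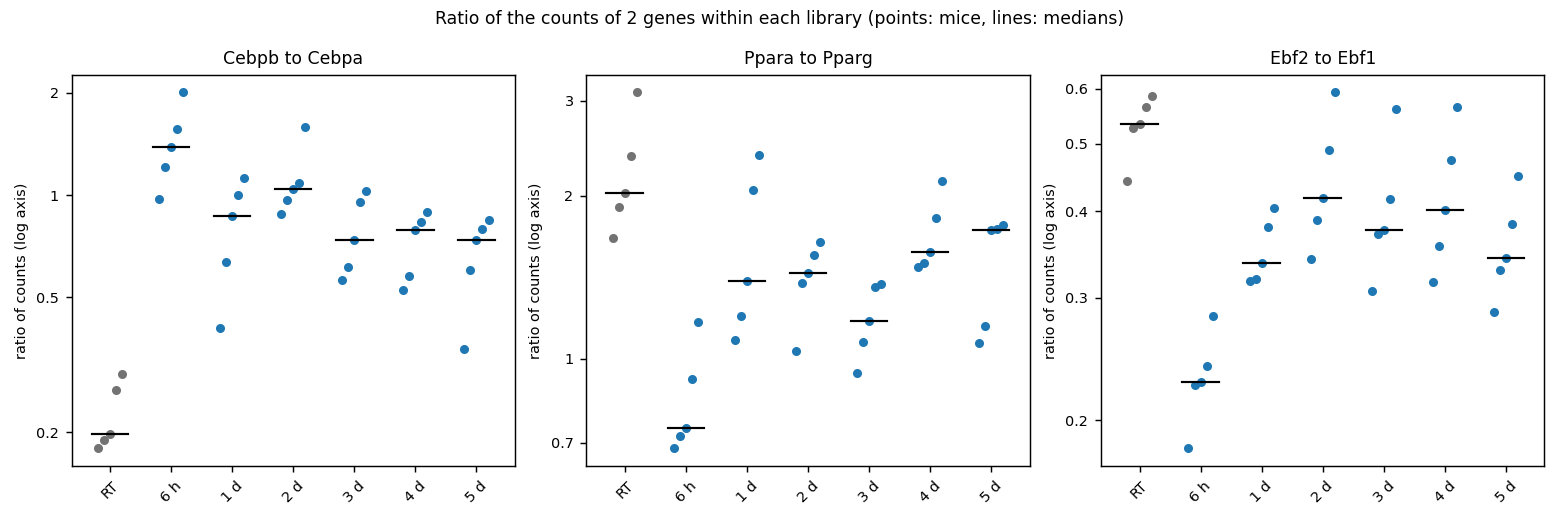
Ratio of the counts of Cebpb to Cebpa, Ppara to Pparg and Ebf2 to Ebf1 (y axes, log scale) in each mouse by group (x axis, RT is room temperature), with lines at the medians. For Cebpb to Cebpa the RT mice lie between 0.179 and 0.297 and all cold-exposed mice lie higher, and for the other 2 ratios the median is lowest at 6 hours.

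The promoters of this pair are shown because the genes responded to the same cold exposure in opposite directions. Each sequence is the run of 250 bases before the RefSeq start of the gene on the plus strand of GRCm38.p6, at chr2:167688665-167688914 for Cebpb and chr7:35119043-35119292 for Cebpa, and neither holds exon sequence of its gene. The gene bodies are at chr2:167688915-167690418 and chr7:35119293-35121928. Capitals mark the CREB half-site TGACG on either strand (CGTCA on the other strand), which is also contained in the full CREB element TGACGTCA.
Cebpb: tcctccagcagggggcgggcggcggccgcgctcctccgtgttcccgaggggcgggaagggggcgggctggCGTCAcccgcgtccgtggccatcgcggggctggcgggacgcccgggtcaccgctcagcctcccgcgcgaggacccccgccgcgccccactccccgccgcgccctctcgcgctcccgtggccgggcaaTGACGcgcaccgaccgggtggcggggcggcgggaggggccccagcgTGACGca
Cebpa: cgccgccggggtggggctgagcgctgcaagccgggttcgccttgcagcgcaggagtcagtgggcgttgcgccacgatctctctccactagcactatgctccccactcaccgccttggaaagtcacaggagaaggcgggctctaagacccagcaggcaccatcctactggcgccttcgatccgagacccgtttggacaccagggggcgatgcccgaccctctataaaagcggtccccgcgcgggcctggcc
The Cebpb window held 3 half-sites, at 180, 53 and 7 bases before the start, and no full element. The Cebpa window held no match. Over 32851 mouse promoters of the same length, 17.8% held at least 1 half-site and 1.55% the full element. Promoter sequence was found for 8 of the 10 genes in 12 windows, Cebpd and Ebf2 being without an entry. Windows of Ppara (150 of 250 bases), Ebf1 (250) and Pparg (193 and 57) held exon sequence of their own gene. No match to the C/EBP palindrome TTGCGCAA (0.164% of promoters), the PPAR direct repeat DR1 (0.0335%) or the glucocorticoid response element (0.00913%) was found in the 12 windows, all searched on both strands in their strict forms.

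Cebpd (chr16:15887286-15891031, plus strand), which acts with Cebpb in the first steps of adipogenesis, had only 11 to 48 counts per mouse. The RT mice had 3.48, 6.62, 5.24, 5.11 and 8.19 CPM, and the mice at 6 hours had 6.83, 11.1, 8.29, 5.67 and 8.54 CPM. The groups overlapped, and the log2 fold change of 0.48 (SE 0.24) did not pass the test (edgeR adjusted p = 0.116), although without RT replicate 5 it was 0.65 and passed (edgeR adjusted p = 0.0426). At 5 days the mice lay between 2.76 and 5.01 CPM, and here every mouse was below the lowest mouse at 6 hours. That difference, −0.95 on the log2 scale (SE 0.25), passed (edgeR adjusted p = 0.0051). Cebpd overlaps exon sequence of Spidr on the opposite strand, which had at most 32 counts in a mouse.

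**Figure D3:**
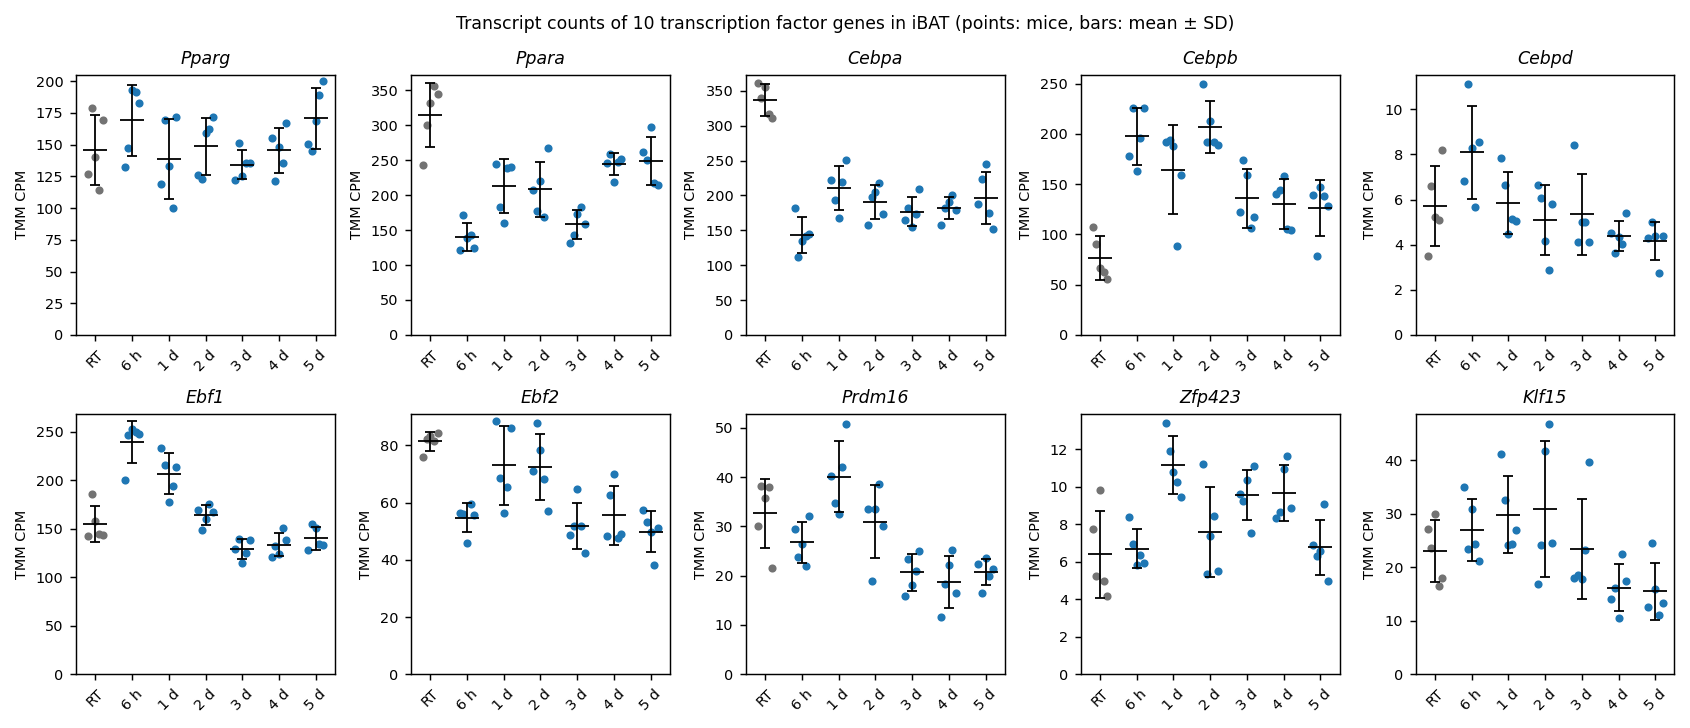
Level of each of the 10 genes (panels, y axis in TMM-scaled CPM from 0) in each mouse (points) by group (x axis, RT is room temperature), with the mean and SD of 5 mice in black. The Cebpa points of all cold-exposed groups lie below the RT points, the Ebf1 points peak at 6 hours, and the Prdm16 points are highest at 1 day.

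The 2 PPAR genes behaved differently. Ppara (chr15:85734983-85802819, plus strand) was at 242, 300.3, 331, 356 and 344 CPM in the RT mice and at 121, 172, 139, 143 and 125 CPM after 6 hours. All mice at 6 hours were lower than all RT mice, and the log2 fold change was −1.19 (SE 0.12, edgeR adjusted p = 5.2e-07), a fall of 2.28-fold. At 1 day the mice ranged from 160 to 244 CPM, at 2 days from 168 to 268, and at 3 days from 132 to 183. The changes against RT at 1 and 2 days were −0.57 (SE 0.14) and −0.61 (SE 0.14), with edgeR adjusted p = 0.0042 for both. At 3 days the change was −0.98 (SE 0.12, edgeR adjusted p = 1.5e-05), again without overlap with RT, and at 4 days it was −0.37 (SE 0.11, edgeR adjusted p = 0.0113). By 5 days the mice had 261, 250.3, 298, 218 and 214 CPM. Of these values 2 lay below the lowest RT mouse, and the log2 fold change was −0.35 (SE 0.12, edgeR adjusted p = 0.0296). The last call was lost without RT replicate 3, 4 or 5 or without replicate 2, 4 or 5 at 5 days, with a log2 fold change between −0.43 and −0.30 over all 10 omissions and edgeR adjusted p between 0.0511 and 0.0874 where it was lost.

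Pparg (chr6:115360951-115490399, plus strand), by contrast, did not pass the test against RT at any duration. Its levels were 127, 179, 139.9, 115 and 169.6 CPM in the RT mice, 132, 147, 193, 192 and 183 CPM after 6 hours, and 150.4, 145, 169, 189 and 200.3 CPM after 5 days. The groups overlapped at each duration. The log2 fold changes against RT ran from −0.11 to 0.22, and their 95% intervals reached no lower than −0.38 and no higher than 0.48. Among all 21 pairs of groups, looked through after the values were seen, Pparg passed only between 6 hours and 3 days, where it was lower at 3 days by a log2 fold change of −0.31 (SE 0.11, edgeR adjusted p = 0.0439) with overlap between the groups, in a comparison with 32.7% of all genes called. That call was lost without replicate 3, 4 or 5 at 6 hours or replicate 1, 3, 4 or 5 at 3 days (−0.39 to −0.26 over all omissions, edgeR adjusted p between 0.064 and 0.109 where lost), and with library size alone, a replicate block or 1 fit of 7 groups (edgeR adjusted p = 0.0786, 0.0808 and 0.0629). Within a library, the ratio of Ppara to Pparg counts was 1.68, 1.91, 2.03, 2.37 and 3.11 at RT and 0.683, 0.720, 0.745, 0.918 and 1.17 after 6 hours, with no overlap. Since the counts come from the 3′ end, the isoforms of Pparg, which differ at their 5′ ends, were not separated.

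Ebf1 (chr11:44617317-45008091, plus strand) and Ebf2 (chr14:67233292-67430918, plus strand) went apart at 6 hours. Ebf1 rose from 142, 186, 158, 144 and 144 CPM in the RT mice to 200.4, 247, 252, 249 and 247 CPM, with all mice at 6 hours above all RT mice (log2 fold change 0.61, SE 0.10, edgeR adjusted p = 0.00011). It was still raised after 1 day, by 0.41 (SE 0.11, edgeR adjusted p = 0.0062) with 4 of 5 mice above the RT range. By 2 days it was between 148 and 176 CPM, inside the RT range. From 3 to 5 days its means were 129, 133 and 140.3 CPM against 155 at RT, with log2 fold changes of −0.25, −0.22 and −0.15 that did not pass the test (edgeR adjusted p = 0.0663, 0.0851 and 0.268), although at 3 days all 5 mice, at 115 to 139.7 CPM, lay below the RT range. The rise at 1 day did not pass with library size alone (log2 fold change 0.20, edgeR adjusted p = 0.188).

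Ebf1 is also transcribed outside adipocytes, in stromal and vascular cells. The summed level of 6 endothelial markers was between 264 and 326 CPM in the RT mice, between 442 and 551 after 6 hours, between 524 and 614 after 1 day and between 240.2 and 390.0 after 5 days. Of the endothelial markers 2 of 6 rose and 1 fell after 6 hours (Pecam1, log2 fold change 1.08, and Tie1, −0.61). After 1 day 4 of 5 tested were higher. Over all genes tested, 21.5% rose and 21.0% fell after 6 hours, and 18.9% rose after 1 day. None of the 6 markers was at 0 in all mice. The part of endothelial cells in the change of Ebf1 was not tested.

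Ebf2 was the tightest of the 10 genes at RT, with 75.9, 82.2, 83.4, 81.5 and 84.2 CPM (SD 4.02% of the mean). After 6 hours it was at 56.5, 56.1, 46.0, 59.6 and 55.5 CPM. The groups did not overlap, and the log2 fold change was −0.59 (SE 0.10, edgeR adjusted p = 8.4e-05). At 1 and 2 days the mice spread from 56.4 to 88.5 CPM and overlapped the RT mice, with log2 fold changes of −0.16 and −0.18 that did not pass (edgeR adjusted p = 0.322 and 0.265). From 3 days on all mice were again below the RT range, and the log2 fold change after 5 days was −0.71 (SE 0.11, edgeR adjusted p = 6.3e-05). The ratio of Ebf2 to Ebf1 counts was 0.442, 0.527, 0.534, 0.564 and 0.585 at RT and 0.182, 0.225, 0.227, 0.239 and 0.282 after 6 hours. At 5 days it was 0.286 to 0.449, where only the highest mouse reached the RT range.

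Prdm16 (chr4:154316125-154636873, minus strand), which encodes the coregulator that maintains brown identity, was lower than at RT from 3 days on. The RT mice had 30.0, 38.2, 35.8, 37.9 and 21.6 CPM. At 6 hours they had 29.4, 23.9, 26.4, 22.0 and 32.1 CPM, inside the RT range, and the log2 fold change of −0.31 (SE 0.15) did not pass (edgeR adjusted p = 0.113). The lowest RT mouse, replicate 5, carried this outcome, as without it the change was −0.42 and passed (edgeR adjusted p = 0.0194). After 4 days the mice were at 11.6, 18.3, 22.2, 25.1 and 16.4 CPM. Of the 5 mice 3 were below all RT mice, with a log2 fold change of −0.81 (SE 0.19, edgeR adjusted p = 0.0028). The changes after 3 and 5 days were −0.65 (SE 0.16) and −0.66 (SE 0.15), with edgeR adjusted p = 0.0053 and 0.0023. At 1 day Prdm16 stood at 32.5 to 50.9 CPM, its highest group, but the log2 fold change against RT of 0.29 (SE 0.156) did not pass (edgeR adjusted p = 0.161).

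Zfp423 (chr8:87661810-87959595, minus strand) had 19 to 74 counts per mouse. It was at 7.75, 5.26, 9.82, 4.95 and 4.18 CPM in the RT mice and at 13.4, 11.9, 10.8, 10.3 and 9.44 CPM after 1 day. All but 1 of the 5 mice at 1 day were above the RT range, and the log2 fold change was 0.82 (SE 0.22, edgeR adjusted p = 0.0073). After 6 hours the change was 0.06 (SE 0.24), and after 5 days 0.09 (SE 0.25), both with groups that overlapped. The value of 0.61 after 4 days (SE 0.22, edgeR adjusted p = 0.0422) was not firm. It did not pass without RT replicate 2, 4 or 5 or replicate 3 or 4 at 4 days, where it was between 0.49 and 0.81 over all omissions with edgeR adjusted p between 0.0801 and 0.11 where lost, nor with library size alone (0.47, edgeR adjusted p = 0.109). The value after 3 days, 0.60 (SE 0.23, edgeR adjusted p = 0.0523), did pass without RT replicate 1 or 3 or replicate 4 at 3 days (0.48 to 0.80 over all omissions, edgeR adjusted p between 0.0118 and 0.0459 where gained). Precursor cells also express Zfp423. The summed level of 11 stromal progenitor markers was between 356 and 431 CPM in the RT mice, between 346 and 359 after 1 day and between 357 and 478 after 3 days, and their part in the result was not tested.

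Klf15 varied most between mice, with an SD between 21.3% and 41.4% of the mean in a group. The RT mice had 27.1, 23.6, 29.9, 16.5 and 18.0 CPM. The mice at 6 hours had 34.9, 23.4, 30.9, 24.4 and 21.2 CPM, and those at 2 days 17.0, 24.2, 41.8, 46.9 and 24.6 CPM. All changes up to 3 days failed the test, with log2 fold changes between 0.03 and 0.42. After 4 days the mice were at 14.1, 16.1, 10.6, 22.5 and 17.5 CPM and after 5 days at 12.5, 24.6, 15.9, 11.02 and 13.4 CPM. The log2 fold changes were −0.51 (SE 0.19, edgeR adjusted p = 0.0453) and −0.57 (SE 0.21, edgeR adjusted p = 0.0357), with groups that overlapped in both cases. Both calls depended on single mice. The call after 4 days was lost without RT replicate 1, 2 or 3 or without replicate 1, 2, 3 or 5 at 4 days (−0.64 to −0.39 over all omissions, edgeR adjusted p between 0.0627 and 0.127 where lost). The call after 5 days was lost without RT replicate 1, 2 or 3 or without replicate 1, 3, 4 or 5 at 5 days (−0.79 to −0.46, edgeR adjusted p between 0.0568 and 0.102 where lost).

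The Klf15 promoter is shown because it held matches to 2 of the motifs searched. The window is chr6:90462326-90462575, before the gene body at chr6:90462576-90475238 on the plus strand, and again outside the exons of the gene. Capitals mark the E-box CACGTG, which clock factors among others bind and which reads the same on both strands, and the CREB half-site TGACG or its complement CGTCA.
Klf15: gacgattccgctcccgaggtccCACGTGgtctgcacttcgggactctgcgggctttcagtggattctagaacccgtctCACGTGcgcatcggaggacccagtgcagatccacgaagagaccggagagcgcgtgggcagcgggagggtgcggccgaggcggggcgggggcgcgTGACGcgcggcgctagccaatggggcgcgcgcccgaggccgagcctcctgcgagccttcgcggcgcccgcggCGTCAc
The E-box was found at 228 and 172 bases before the start and the half-site at 78 and 6 bases. Of all promoters of this length, 6.02% held the E-box. No other window of the 10 genes held an E-box. Besides the windows of Cebpb and Klf15, a half-site was found only in that of Ppara, at 222 bases before the RefSeq start. That window lies inside the gene body given above and partly in exons of Ppara.

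Differences between durations were tested directly. From 6 hours to 1 day, Ppara, Cebpa, Ebf2, Prdm16 and Zfp423 were higher, 5 of the 10 genes, beside 9.19% of the 10181 genes tested that were higher and 7.75% that were lower. The largest of these was Zfp423, from 8.41, 6.95, 5.83, 6.38 and 5.94 CPM at 6 hours to the values at 1 day given above, by 0.75 (SE 0.18, edgeR adjusted p = 0.0081) without overlap. Prdm16 rose by 0.59 (SE 0.14, edgeR adjusted p = 0.0081), also without overlap. Ppara and Cebpa rose by 0.61 and 0.57, with 4 of 5 mice above all mice at 6 hours in each. The call for Ebf2 (0.42, SE 0.13, edgeR adjusted p = 0.0304) was lost without replicate 1, 2, 3 or 5 at 6 hours or without replicate 1 or 5 at 1 day (0.35 to 0.51 over all omissions, edgeR adjusted p between 0.0504 and 0.0919 where lost) and with library size alone (edgeR adjusted p = 0.0606).

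From 6 hours to 5 days, 2 genes were higher and 4 lower, beside 19.0% and 16.9% of all genes. Ppara was higher by 0.84 (SE 0.12, edgeR adjusted p = 1.1e-05), and Cebpa by 0.47 (SE 0.13, edgeR adjusted p = 0.0083). Cebpb, Cebpd and Ebf1 were lower by values of −0.63, −0.95 and −0.75 on the log2 scale, and for each of the 3 all mice at 5 days lay below all mice at 6 hours. Klf15 was lower too, −0.78 (SE 0.20, edgeR adjusted p = 0.0036), with 4 of 5 mice below. Prdm16 missed the threshold with −0.35 (edgeR adjusted p = 0.0546). It passed without replicate 4 at 6 hours or replicate 3 at 5 days (−0.42 to −0.28 over all omissions, edgeR adjusted p between 0.0317 and 0.0473 where gained).

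Between 1 and 5 days, a comparison chosen after the levels had been seen, 5 of the 10 genes were lower and the other 5 did not pass. Over all 10385 genes tested, 10.7% were higher and 8.68% lower. Prdm16 fell from 40.2, 34.8, 32.5, 42.1 and 50.9 CPM at 1 day to 22.4, 16.5, 23.6, 19.9 and 21.4 CPM at 5 days, −0.95 on the log2 scale (SE 0.14, edgeR adjusted p = 0.00022). Klf15 had the same size of change, −0.96 (SE 0.20, edgeR adjusted p = 0.0034), with 4 of 5 mice below. The changes of Ebf1, Ebf2 and Zfp423 were −0.56, −0.55 and −0.73, and all mice at 5 days were below all mice at 1 day for Prdm16, Ebf1 and Zfp423. These 5 calls held when any of the 10 mice was left out. Cebpb at −0.39 (edgeR adjusted p = 0.163) passed without replicate 4 at 1 day (−0.54, edgeR adjusted p = 0.0204) and without the filter on low counts (edgeR adjusted p = 0.0231).

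When the 7 group means of each gene were put in order, 60 pairs of neighbours arose, and 5 of them differed in the test. The RT mice stood apart from their nearest neighbour at the top for Ppara (5 days next, at 248 against 315 CPM) and Cebpa (1 day next, at 211 against 337 CPM), and at the bottom for Cebpb (5 days next, at 126 against 76.6 CPM). The call for Ppara was lost in 6 of 10 omissions of single mice, and those for Cebpa and Cebpb in 0 of 10. Cebpa at 6 hours, 143 CPM, was also below its neighbour at 3 days, 177 CPM (log2 fold change 0.34, edgeR adjusted p = 0.0368). Klf15 at 4 days was below RT as given above. The order of the other neighbours, all 6 pairs of Pparg, Cebpd, Ebf1, Ebf2, Prdm16 and Zfp423 included, is not settled at n = 5. Between late durations, edgeR called none of 10843 genes between 3 and 4 days (845 at an unadjusted p below 0.05, and 20 called by DESeq2), none of 10651 between 4 and 5 days (742 and 7) and 202 of 10540, or 1.92%, between 3 and 5 days (2035 and 559). Ppara was among the last, with all 5 mice at 5 days above all mice at 3 days (log2 fold change 0.63, SE 0.12, edgeR adjusted p = 0.0122), a pair picked after the values were seen.

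Across the 35 mice, the genes whose log2 CPM most resembled that of each regulator were searched among 6238 genes with a mean of at least 10 CPM. These correlations are a description over mice that fall into 7 groups of 5 and over libraries of similar depth. Cebpa resembled Pde4dip (Pearson r = 0.867) and Sspn (0.866), and Cebpb resembled Pdgfb (0.864) and Bpnt1 (0.838). Ebf1 followed Adamts9 (0.873) and Pfkfb3 (0.871), the latter a kinase that speeds glycolysis. Ebf2 was most like Prkag2 (0.853), a regulatory subunit of AMP-activated kinase, and Crip2 (0.774). For Ppara the nearest were Pgrmc2 (0.822) and the mitochondrial kinase anchor Akap1 (0.803). Klf15 was most like Klf9 (0.802), another Krüppel-like factor, and Zbtb20 (0.775). Prdm16 lay nearest to the lipid droplet gene Cidec (0.747) and to F11r (0.734), Pparg to Usmg5 (0.755) and Snx3 (0.746), Cebpd to Dgkh (0.761) and Filip1l (0.727), and Zfp423 to Zfp219 (0.703) and Adgre5 (0.682).

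Genes that work with these factors were read from lists. Over all genes tested, 21.5% were higher and 21.0% lower after 6 hours, and 20.2% and 18.6% after 5 days. These shares stand beside the counts of lists and markers here and in the paragraphs that follow. Of 26 tested partners and cofactors, 8 rose and 4 fell after 6 hours, and of 27 tested after 5 days 5 rose and 8 fell. Ppargc1a, the coactivator of PPARγ and PPARα in thermogenesis, rose from 60.8 ± 16.5 to 756 ± 227 CPM (SD, n = 5) after 6 hours, a log2 fold change of 3.62 (SE 0.22, edgeR adjusted p = 1.2e-09), and was still up by 1.97 after 5 days. Ctbp2, a corepressor, gave the largest fall at 6 hours (−1.09, edgeR adjusted p = 0.00036), and Zbtb16 at 5 days (−0.89, edgeR adjusted p = 0.0091). Of 19 tested other regulators of adipogenesis, 6 rose and 4 fell after 6 hours, while 2 rose and 9 fell after 5 days, with medians of 0.20 and −0.34 on the log2 scale. In this list Klf4 rose most (0.87) and the lipogenic factor Srebf1 fell most, from 66.1 to 19.2 CPM, after 6 hours, and after 5 days Cebpg (0.96) and Stat5a (−1.28) did so.

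Known target genes of the factors were counted in the same way, again beside 21.5% of all genes higher and 21.0% lower after 6 hours. After 5 days these shares were 20.2% and 18.6%. Of 16 PPARγ and C/EBPα targets of adipocytes, the test called 5 higher and 3 lower after 6 hours, then 4 higher and 5 lower after 5 days. Lpl, which encodes lipoprotein lipase, went from 3042 CPM up to 7706 CPM after 6 hours, by 1.32 on the log2 scale (SE 0.10, edgeR adjusted p = 1.1e-08), whereas Lep, the leptin gene, fell from 12.0 to 2.89 CPM (−2.07, edgeR adjusted p = 0.0014) and to 1.09 CPM after 5 days (−3.44, edgeR adjusted p = 2.6e-05). Among the PPARα targets of fatty acid oxidation 2 of 15 tested rose and 2 fell after 6 hours, when the mean of Ppara was lowest. After 1, 2 and 3 days Ppara was still lower than at RT. Then 5, 6 and 6 of 14 tested targets were higher and 3, 2 and 2 lower. The shares over all genes were 18.9%, 16.4% and 18.3% higher, and 17.8%, 14.7% and 15.5% lower. The list median was 0.28 after 3 days, with Ppara at −0.985. After 5 days 8 were higher and 2 lower of 14 tested, with a list median of 0.55 on the log2 scale. Acot2, an acyl-CoA thioesterase, rose by 0.52 after 6 hours and 2.62 after 5 days (edgeR adjusted p = 0.0264 and 1.4e-06), and Angptl4, an inhibitor of lipoprotein lipase, gave the largest fall both times, −1.76 and −0.79. Of 10 brown-selective genes tied to PRDM16 and EBF2, 6 were higher after 6 hours and 7 after 5 days, the others not passing the test. Dio2, whose enzyme activates thyroid hormone, rose by 5.41 (SE 0.43, edgeR adjusted p = 2.8e-08) after 6 hours, and the fatty acid elongase gene Elovl3 by 6.55 (SE 0.33, edgeR adjusted p = 2.5e-10) after 5 days. Of 6 tested amino acid genes linked to KLF15, 2 were lower after 6 hours and 2 after 5 days, led by Gpt (−0.74, edgeR adjusted p = 0.00014) and Bcat2 (−0.70, edgeR adjusted p = 0.0045).

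**Figure D4:**
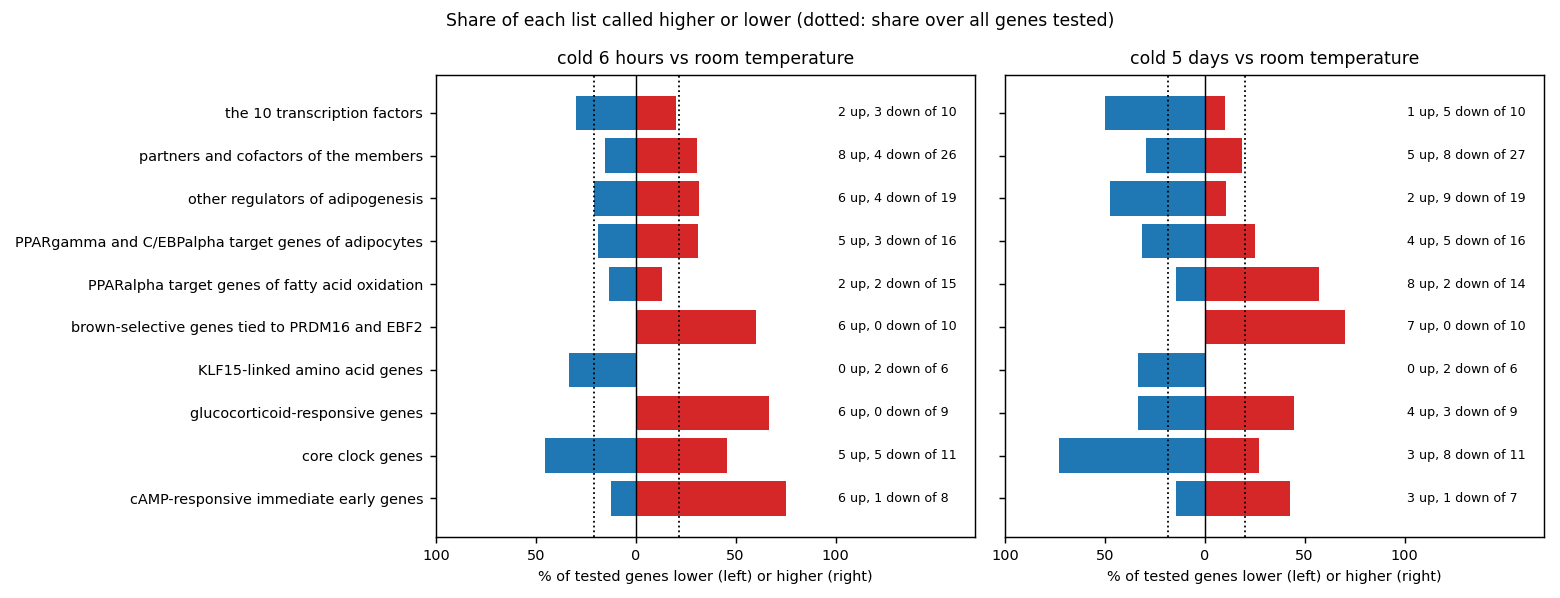
Share of the tested genes of each list (y axis) that were called higher (red, right) or lower (blue, left) after 6 hours and after 5 days of cold against room temperature, with dotted lines at the share over all genes tested. Among brown-selective genes 6 and 7 of 10 were higher. Of the 10 transcription factors 2 were higher and 3 lower after 6 hours, and 1 was higher and 5 lower after 5 days. Over all genes tested, 21.5% were higher and 21.0% lower after 6 hours, and 20.2% and 18.6% after 5 days.

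Another 3 lists moved at the same time as the factors. Of 8 tested immediate early genes that respond to cyclic AMP, 6 rose and 1 fell after 6 hours, and of 7 tested after 5 days 3 rose and 1 fell. Nr4a3 rose by 4.94 (edgeR adjusted p = 1.1e-07) after 6 hours, while Egr1 fell (−0.90, edgeR adjusted p = 0.015), and Sik1 rose by 1.72 after 5 days. The summed level of this list was between 67.6 and 127 CPM in the RT mice, between 178 and 417 after 6 hours and between 81.6 and 138 after 5 days. Of 9 glucocorticoid-responsive genes 6 were higher after 6 hours, led by the phosphatase gene Dusp1 (1.91, edgeR adjusted p = 7.8e-07), and after 5 days 4 were higher and 3 lower, with Dusp1 at 1.61. Of 11 tested core clock genes the test called 5 higher and 5 lower after 6 hours, then 3 higher and 8 lower after 5 days. Arntl, the activator that binds E-boxes, rose by 3.53 (edgeR adjusted p = 1.6e-09) and Nr1d1, a repressor, fell by 2.90 on the log2 scale (edgeR adjusted p = 5.5e-09) after 6 hours, and after 5 days Cry1 rose by 0.75 while Dbp changed by −3.15. Per1 stands in all 3 of these lists and was lower after 5 days (−1.02, edgeR adjusted p = 0.0056). The hour of day at which tissue was taken is not given in the sources used here. Whether it differed between the groups is therefore not known, and cold and hour of day cannot be told apart. The part of these lists in the changes of Cebpb, Cebpa, Ppara and Klf15 was not tested.

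Markers of the other cell types were read mainly after 5 days. The adipocyte sum rose from between 7891 and 10060 CPM at RT to between 12430 and 15030 after 6 hours. Ucp1, the uncoupling protein gene, at 1.90 on the log2 scale, was the only 1 of the 8 markers called higher. At that time 3 of the 8 were lower, led by Adrb3 (−1.12). The median log2 fold change of the 8 was −0.16, against −0.03 over all genes, so the sum does not describe the typical marker. After 5 days 3 were higher and 2 lower. Of 7 tested macrophage markers 3 were higher after 5 days, led by Cd68 (2.14), and their summed level reached 104 to 209 CPM against 69.3 to 168 at RT. Of 5 proliferation genes 2 could be tested after 5 days and both were higher, with Mki67 at 3.12. Of 6 mural cell markers 5 were lower after 5 days, led by Myh11 (−1.03), and the summed level was 227 to 295 CPM against 354 to 400.1 at RT. Among 10 tested stromal progenitor markers 2 were higher and 1 lower at that time. Of 6 skeletal muscle markers 3 were lower, led by Acta1 (−1.36), and their sum varied from 2.79 to 939 CPM among the 35 mice. Of 5 erythroid markers 3 were higher, as was Ighm, the only B cell marker of 5 tested (1.36). Among 4 tested Schwann cell markers 1 was higher (S100b, 0.39), although the median log2 fold change of the 4 was −0.17. The falls of Ppara, Cebpa, Ebf2, Prdm16 and Klf15 after 5 days were seen at the same time as these shifts. Ebf2 (−0.636) and Prdm16 (−0.653) were already lower after 3 days. At 3 days 0 of 6 mural and 0 of 6 skeletal muscle markers were lower, beside 15.5% of all genes. Macrophage markers (4 of 7) and tested proliferation genes (3 of 3) were higher then, beside 18.3%. The part of other cell types in these falls was not tested.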

How the data were processed

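The authors deposited whole-number counts per gene, without normalization, made from QuantSeq 3′ FWD libraries with STAR 2.6.1d and HTSeq 0.11.2 on GRCm38. Whether the counting used strand is not given in the sources used here. Symbols were found for 55154 of 55421 identifiers. Groups followed the sample titles, and no column lay outside the 35 mice (other columns: 0). Each pair of groups was fitted on its own over all genes with edgeR 4.0.16 in R 4.3.3 (TMM scaling, genes kept by filterByExpr, quasi-likelihood F test, p-values adjusted by Benjamini-Hochberg, threshold 0.05), with DESeq2 1.42.0 as an alternative. Log2 CPM used a prior count of 2, and 95% intervals are normal intervals from the standard error. On simulated counts for 6 hours against RT (10593 genes, 200 of them changed), edgeR recovered 187 with 12 false calls and DESeq2 188 with 18. In 12077 genes over 7 groups, edgeR recovered 175 with 11. The changed genes were drawn only from better-counted genes and given changes of at least 2-fold. These recoveries therefore do not cover smaller changes or genes with few counts. For 6 hours, the edgeR count also required the right direction and the DESeq2 count did not.

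One count equals 0.165 to 0.26 CPM. No 2 libraries were identical. The genes, the lists and the tests were chosen with earlier results of these data known. All 10 regulators were named, with the 2 genes most alike each (mean of at least 10 CPM) and, for each list, the called gene with the largest rise and fall after 6 hours and 5 days (mean of at least 20 counts). Gene positions are from GENCODE on GRCm38 and promoters from RefSeq on GRCm38.p6, with 250 bases before each start. Alternatives were other scalings, DESeq2, no filter, leaving out mitochondrial genes and Gm42418, a replicate block, all groups in 1 fit and leaving out each mouse. Scripts ran in Python 3.11.15 (numpy 2.4.6, pandas 2.3.3, matplotlib 3.10.9).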

Additional observations from a re-analysis of the deposited data

Results flagged for a closer look

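Among 70 groups of 5 mice (10 genes in 7 groups), 4 held a mouse that stood apart from the others by Dixon's criterion, where chance gives about 1 in 20 groups. Cebpb was at 78.13 CPM in replicate 2 at 5 days, far below the other 4, and without that mouse the log2 fold change against RT was 0.85 (edgeR adjusted p = 0.00045). Ebf1 was at 200.4 CPM in replicate 1 at 6 hours, the lowest of its group, and the change without it was 0.68 (edgeR adjusted p = 5.8e-05). Cebpd was at 8.427 CPM in replicate 1 at 3 days, and without it the change was −0.31 (edgeR adjusted p = 0.41). Klf15 was at 39.68 CPM in replicate 5 at 3 days, and without it the change turned from 0.03 to −0.23 (edgeR adjusted p = 0.35).

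In the direct tests of 1 day against 6 hours and of 5 days against 6 hours (edgeR adjusted p below 0.05), 11 differences passed. From 6 hours to 1 day the log2 differences were 0.614 for Ppara, 0.569 for Cebpa, 0.425 for Ebf2, 0.587 for Prdm16 and 0.755 for Zfp423. From 6 hours to 5 days they were 0.84 for Ppara, 0.475 for Cebpa, −0.633 for Cebpb, −0.945 for Cebpd, −0.755 for Ebf1 and −0.78 for Klf15.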

How the results depend on the processing

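The number of genes of the family called in each comparison, higher and lower together, stayed within 1.5 times its value under every alternative run, whereas the counts in 1 direction moved further for 2 to 5 days. Without the filter 2 genes were higher after 2 days, and with DESeq2, a replicate block or 1 fit of 7 groups 2 were higher after 3 days, each against 1. The 5 calls among neighbours in the order of levels moved to 3 with a replicate block and to between 3 and 6 when single mice were left out, the lowest without RT replicate 3. Over 90 log2 fold changes of single genes, 87 kept their direction and their side of the threshold with DESeq2, 88 with RLE size factors, 86 without the filter, 86 in 1 fit of 7 groups, 90 without mitochondrial genes and Gm42418, and 70 with library size only. Signs turned only among changes that did not pass the test. With library size only, Pparg was at −0.004 after 6 hours, −0.229 after 2 days, −0.017 after 5 days and −0.013 from 6 hours to 5 days, Zfp423 at −0.127 after 6 hours, −0.145 after 5 days and −0.018 from 6 hours to 5 days, Cebpd at −0.198 after 1 day, Ebf1 at −0.151 after 2 days and Klf15 at −0.124 after 3 days. Pparg after 4 days turned from −0.009 to 0.001 with RLE, 0.001 with DESeq2, 0.028 without the filter and 0.003 with the replicate block. Leaving out single mice gave both signs for Pparg after 1 day (−0.153 to 0.028), 2 days (−0.069 to 0.085), 4 days (−0.088 to 0.072) and from 6 hours to 5 days (−0.055 to 0.08), for Cebpd after 1 day (−0.112 to 0.19) and 3 days (−0.307 to 0.065), for Klf15 after 3 days (−0.226 to 0.14), for Prdm16 after 2 days (−0.213 to 0.051), and for Zfp423 after 6 hours (−0.056 to 0.255), 5 days (−0.03 to 0.287) and from 6 hours to 5 days (−0.091 to 0.13). The cause was not tested.

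Calls gained with library size only were Prdm16 after 6 hours, Ebf2 after 1 and 2 days, Ebf1 after 3, 4 and 5 days and Cebpd after 5 days. Ebf1 after 3 days also passed with DESeq2 and in 1 fit of 7 groups, as did Zfp423 after 3 days. Without the filter Klf15 passed after 1 and 2 days. The fall of Klf15 after 4 days was lost with RLE (edgeR adjusted p = 0.0521) and in 1 fit of 7 groups (0.115), and that after 5 days in the latter (0.0785). Replicate numbers are shared between groups but mark different mice. The correlation of same-numbered mice in their deviations from the group means was between −0.332 and 0.195, and at most 2 of the 5 pairs in a comparison were above 0.1, so that they were not treated as pairs. With the replicate block, 87 of the 90 changes kept their call and direction, Klf15 after 4 days lost its call (−0.51, edgeR adjusted p = 0.0926) and Zfp423 after 3 days gained one. At most 4 of 10 mice in a comparison were most like the mouse of their own number. Cebpd, with 11 to 48 counts per mouse, and Zfp423, with 19 to 74, are limited most by depth.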
